A study of Bos taurus with 11 samples.

Results

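The HOX genes of the calf mammary gland were taken as the probe sets that carry exactly 1 gene symbol made of HOX, a cluster letter from A to D and a number, with 1 probe set per gene. By this rule 34 genes were found among 18444 genes with 1 symbol, and each had a single probe set. They comprise 9 genes of the HOXA cluster, 9 of HOXB, 8 of HOXC and 8 of HOXD, of 39 HOX genes listed by RefSeq for the cattle assembly ARS-UCD2.0. The rest were not analysed here; among them, HOXD13 was left out because its probe set is listed under more than 1 gene number.

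Expression was measured on 1-colour arrays of mammary parenchyma, the epithelial ducts with their supporting tissue, cut free of the fat pad, from 11 female Holstein calves killed at 54 ± 2 days. Elevated calves (n = 6) drank 8.4 L of milk replacer daily over 3 feedings, for a metabolisable energy intake of 5.9 ± 0.2 Mcal per day. Restricted calves (n = 5) drank 4 L over 2 feedings, for an intake of 2.8 ± 0.2 Mcal per day, and 1 further restricted calf had too little parenchyma to sample. Both groups received the same replacer (28% protein, 15% fat) and starter grain from day 18, and the number of feedings cannot be told apart from the amount fed.

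HOX genes encode transcription factors that bind DNA through a homeodomain and give cells their position along the body axis. They lie in clusters in which gene order follows the order of expression from head to tail, so that a low paralogue number marks an anterior gene and a high number a posterior one. Genes with the same number in different clusters are paralogues, descended from a common ancestral gene. HOX proteins bind DNA together with PBX and MEIS cofactors, Polycomb complexes keep the genes silent and Trithorax complexes keep them active. In mice, Hoxa9, Hoxb9 and Hoxd9 together are needed for the mammary gland to develop fully for nursing, and Hoxc8 takes part in placing the mammary buds.

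Signals are given as RMA values on a log2 scale, as deposited by the authors, where 1 unit is a 2-fold difference. A signal also depends on the probes, so the order of signals among genes is not an order of transcript amounts. For orientation, 570 probe sets of olfactory receptor genes, which are not known to act in the mammary gland, had a median of 3.35 and a 95th percentile of 4.80, called the reference level here. No detection call was available. Over all probe sets the median was 6.43, and 70.7% lay above the reference level.

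Of the 34 HOX genes, 24 had a mean signal above the reference level and 10 did not. All 7 measured HOXA genes numbered up to 10 were above it, as were HOXB1 to HOXB4, HOXB6, HOXB7 and HOXB9. So were HOXC4 to HOXC9 and HOXD3 to HOXD10, as far as measured. The highest signals lay at HOXA9 and HOXA7 in HOXA, at HOXC6 and HOXC8 in HOXC and at HOXD8 and HOXD4 in HOXD. Those of HOXB lay further forward, at HOXB3 and HOXB2. Over all clusters together, among paralogues 4 to 8, 12 of 13 genes were above the reference level, with a median of 7.22. Among paralogues 1 to 3 it was 6 of 7, with a median of 5.87. Among paralogues 9 to 13 it was 6 of 14, with a median of 4.75.

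HOXC6 had the highest HOX signal, 9.03 over all calves, a level above that of 83.9% of all probe sets. It was followed by HOXC8 at 8.82, HOXA9 at 8.62, HOXA7 at 8.60, HOXA5 at 8.45 and HOXD8 at 8.18. HOXB3, which acts in hindbrain patterning, had the highest signal of its cluster at 7.71, and HOXB2, also a hindbrain gene, stood next at 6.80. Among the other genes, HOXA4 was at 7.37, HOXC9 at 7.28, HOXD4 at 7.22, HOXC4 at 6.97 and HOXC5 at 6.89. HOXB4 was at 6.02, HOXB7 at 5.61 and HOXB6 at 5.55.

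Beyond the highest signal of each cluster, signals toward the posterior end were lower but did not fall at every step. In HOXA they went from 8.62 at HOXA9 to 5.68 at HOXA10, a gene needed for implantation in the mouse uterus, and to 3.93 at HOXA11. In HOXD they went from 8.18 at HOXD8 to 6.14 at HOXD9, 5.29 at HOXD10, 3.79 at HOXD11 and 4.00 at HOXD12. In HOXC they went from 7.28 at HOXC9 to 4.77 at HOXC11, 4.35 at HOXC12 and 4.53 at HOXC13, which controls hair keratins. In HOXB the signal was already 4.29 at HOXB8 and was 5.31 at HOXB9. HOXA13 and HOXB13, genes of the urogenital tract and hindgut, stood at 4.73 and 4.72, just under the reference level. At the anterior end HOXB1 was at 5.29, HOXA2 at 5.87, HOXA3 at 6.00, HOXD3 at 5.77 and HOXD1 at 4.43. Among paralogues of number 9, HOXA9 had a signal of 8.62, HOXC9 7.28, HOXD9 6.14 and HOXB9 5.31.

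**Figure D1:**
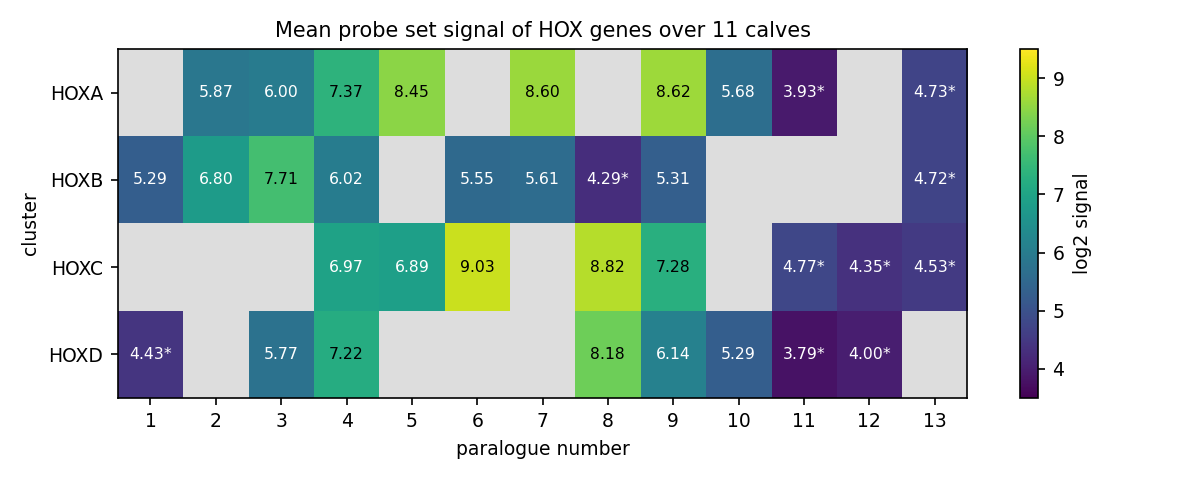
Mean log2 signal over 11 calves for each measured HOX gene, by cluster (rows) and paralogue number (columns); the colour gives the same value, empty cells have no measured gene, and an asterisk marks a mean not above the reference level of 4.80. The brightest cells lie at paralogues 4 to 9, and all 8 measured genes numbered 11 to 13 carry an asterisk.

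The tissue label was checked against marker lists. All 18 luminal epithelial markers, 11 of 11 basal markers and 17 of 18 fibroblast markers were above the reference level, and so were all 18 adipocyte markers. Of 13 measured skin and hair follicle markers only 5 were above it, with the hair keratins KRT25, KRT27, KRT28 and KRT85 between 3.00 and 3.97. No batch was given in the sources used here. Restricted 2 and restricted 4 stood apart: their adipocyte marker means were 10.61 and 10.06, against 7.17 to 8.89 in the other 9 calves, and their luminal means 6.41 and 7.67, against 8.14 to 8.98. Skeletal muscle markers also went with the diet: 12 of 13 were measured higher in elevated calves, and 12 of 13 were above the reference level. Under an unadjusted limma p of 0.05, 8 were higher and 1 lower, against 4.95% of all probe sets higher and 10.3% in either direction. By the same limit 9 of 18 adipocyte markers were lower, and of 18 luminal markers 8 were higher and 1 lower. The skeletal muscle mean was 5.34 to 6.89 in elevated calves, highest in elevated 5, and 5.09 to 5.64 in restricted calves. The difference was 0.64, or 0.45 without elevated 5. In a whole tissue sample, fewer cells of a type and less RNA per cell cannot be told apart.

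No HOX gene differed between the diets past the adjustment over all 26773 probe sets in limma, where 0.00747% of probe sets did. The smallest adjusted p among the 34 genes was 0.380. At an unadjusted p under 0.05 in limma, 2 of 34 HOX genes, HOXA5 and HOXB4, were called, both higher in elevated calves, while 10.3% of all probe sets were called and 4.95% were called higher, shares close to that of the HOX genes or above it. In 0 of 34 HOX genes were the groups free of overlap, against 1.28% of all probe sets. The median log2 difference, elevated minus restricted, was 0.030 over the HOX genes and 0.0031 over all probe sets, with 20 of 34 HOX genes and 50.8% of all probe sets measured higher in elevated calves.

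HOXA5 had the smallest p of the HOX genes. In mice Hoxa5 is needed for lung development and is active in the stroma of the mammary gland. Its log2 signal in elevated calves was 8.29 at the lowest, 8.63 at the median and 8.98 at the highest. In restricted calves 1 to 5 it was 8.36, 8.30, 7.88, 8.45 and 8.23. In 5 of 6 elevated calves it lay above every restricted calf, and elevated 3 lay within the restricted range. The means were 8.63 ± 0.24 (SD, n = 6) and 8.24 ± 0.22 (SD, n = 5), a log2 difference of 0.38 (SE 0.13, 95% interval 0.09 to 0.67), or 1.30-fold. The limma p was 0.0149 unadjusted and 0.380 adjusted. HOXA5 was the HOX gene whose unadjusted p stayed under 0.05 in all 22 alternative fits, with differences from 0.29 to 0.52. Adding the luminal marker mean to the fit gave 0.45, adding the adipocyte mean gave 0.52, and without restricted 2 and restricted 4 it was 0.47. Its adjusted p stayed at or above 0.292 in every fit. Elevated 5, the calf with the highest skeletal muscle marker mean, also had the highest HOXA5 signal, and without it the difference was 0.31. The part of the muscle markers in this difference was not tested. The gene models of HOXA5 and HOXA3 overlap in RefSeq, and transcripts that they share cannot be told apart here.

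HOXB4, known for its role in expanding blood stem cells, was the other gene called before adjustment. Its log2 signal in elevated calves ran from 5.78 through a median of 6.18 to 6.44. Restricted calves 1 to 5 had 5.52, 5.45, 6.04, 6.03 and 6.04, so that restricted 1 and restricted 2 lay below all elevated calves and the other 3 lay within the elevated range. The means were 6.18 ± 0.24 (SD) and 5.82 ± 0.30 (SD), a log2 difference of 0.37 (SE 0.15, limma unadjusted p = 0.0344, adjusted p = 0.449). Without restricted 1 the difference was 0.30 (unadjusted p = 0.0907) and without restricted 2 it was 0.28 (unadjusted p = 0.0927). Adding the adipocyte mean to the fit gave 0.22 (unadjusted p = 0.246) and adding the luminal mean gave 0.24 (unadjusted p = 0.180). The call was also lost without elevated 2, elevated 3 or elevated 5 (unadjusted p = 0.0548, 0.0705 and 0.0705) and with array weights (0.0506). Without restricted 2 and restricted 4 the difference was 0.32 (unadjusted p = 0.0904), and without these and elevated 5 it was 0.27 (unadjusted p = 0.148).

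**Figure D2:**
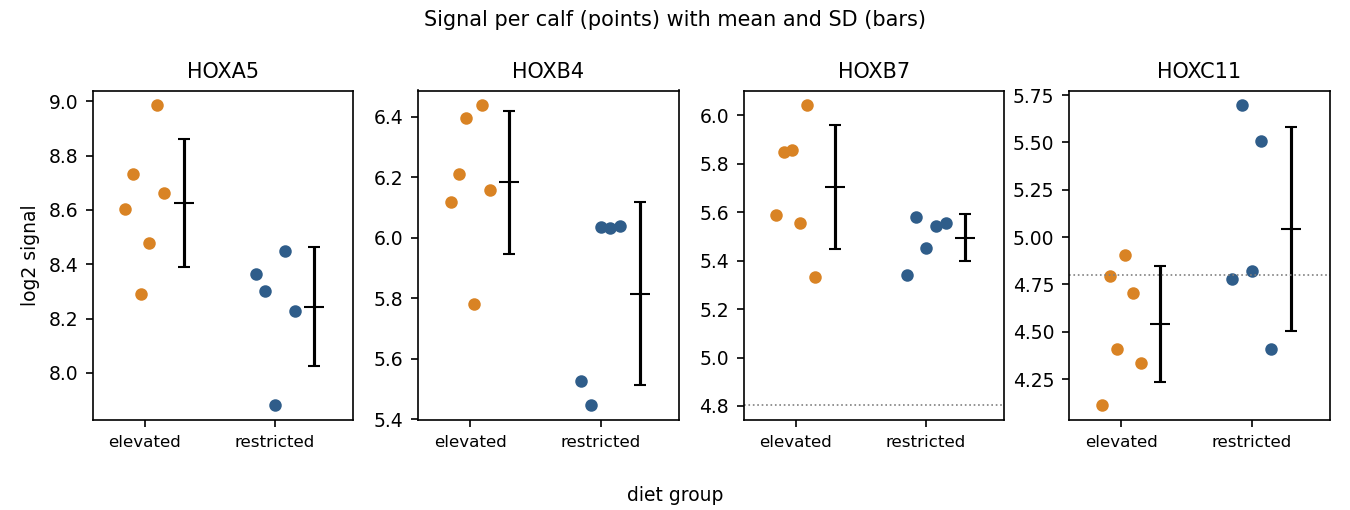
Log2 signal of HOXA5, HOXB4, HOXB7 and HOXC11 in each calf (points) by diet group, with the group mean and SD (black bars); the dotted line is the reference level of 4.80 where it falls in view. The groups overlap for all 4 genes; 5 of 6 elevated calves lie above every restricted calf for HOXA5 and HOXB4, and restricted 2 and restricted 4 have the highest values of HOXC11.

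The other HOXA genes up to HOXA9 were measured slightly higher in elevated calves without passing the test. HOXA3, needed for the thymus and parathyroid in mice, ran from 5.85 through 6.11 to 6.30 in elevated calves. In restricted calves 1 to 5 it was 6.03, 6.04, 5.50, 6.00 and 5.88, so the groups overlapped and restricted 3 was the low value. The log2 difference was 0.20 (SE 0.11), 0.10 without restricted 3 and 0.32 with the adipocyte mean in the fit (limma unadjusted p = 0.108, 0.300 and 0.0330). HOXA9, the paralogue of group 9 with the highest signal here, ran from 8.37 through 8.80 to 8.87 in elevated calves and was 8.72, 8.22, 8.84, 8.40 and 8.35 in restricted calves. Its difference was 0.21 (SE 0.13), and 0.017 once the adipocyte mean was in the fit. HOXA7 ran from 8.09 through 8.80 to 8.95 and was 8.80, 8.13, 8.57, 8.35 and 8.62 in restricted calves (difference 0.19, SE 0.17). Elevated 4 was the lowest calf of its group for both genes and restricted 2 the lowest of the restricted group. Without elevated 4 the differences were 0.28 for HOXA9 and 0.31 for HOXA7 (limma unadjusted p = 0.0469 and 0.0414), and without restricted 3 that of HOXA9 was 0.29 (unadjusted p = 0.0426). The differences of HOXA2 (0.19) and HOXA4 (0.15) had the same sign; that of HOXA4 was 0.37 with the adipocyte mean and 0.35 with the luminal mean in the fit (limma unadjusted p = 0.0292 and 0.0182), and 0.35 without restricted 2 and restricted 4 (unadjusted p = 0.0278). Those of HOXA10 (-0.069), HOXA11 (-0.036) and HOXA13 (0.047) were small, though that of HOXA10 was 0.25 with the luminal mean in the fit. In all, 7 of 9 HOXA genes were measured higher in elevated calves, with a median log2 difference of 0.19.

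Among the other HOXB genes, HOXB7, which raises the growth factor FGF2 in human breast cancer cells, came next. It ran from 5.33 through 5.72 to 6.04 in elevated calves and was 5.34, 5.58, 5.45, 5.54 and 5.55 in restricted calves. In 4 of 6 elevated calves it lay above every restricted calf, while elevated 6 lay below them all (log2 difference 0.21, SE 0.12, limma unadjusted p = 0.109). Without elevated 6 the difference was 0.28 (unadjusted p = 0.0221). HOXB3 ran from 7.67 through 7.72 to 7.93 and was 7.59, 7.60, 7.87, 7.45 and 7.73 in restricted calves, a difference of 0.12 (SE 0.09) with 3 restricted calves below every elevated calf. HOXB2 ran from 6.56 through 6.78 to 7.78 and was 6.68, 6.54, 6.85, 6.21 and 6.93 in restricted calves. Elevated 3 carried the high value of HOXB2, and the difference of 0.28 (SE 0.22) was 0.11 without that calf. The others lay between -0.23 for HOXB8, whose signal was not above the reference level, and 0.16 for HOXB13. The HOXB8 value rested on restricted 3, at 5.22, and was -0.028 without that calf. HOXB13, also below the reference level, differed by 0.31 with the adipocyte mean and 0.29 with the luminal mean in the fit (limma unadjusted p = 0.0495 and 0.0493). In HOXB, 5 of 9 genes were measured higher, with a median of 0.12.

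In HOXC, 3 of 8 genes were measured higher in elevated calves, with a median of -0.060. HOXC6 ran from 8.83 through 9.09 to 9.20 in elevated calves and was 8.86, 8.90, 9.16, 8.97 and 9.17 in restricted calves. The difference was 0.031 with a 95% interval from -0.18 to 0.24. HOXC8 ran from 8.62 through 8.76 to 9.26 and was 8.55, 9.24, 8.73, 8.81 and 8.70, a difference of 0.039 with an interval from -0.28 to 0.36. With the luminal mean in the fit the HOXC8 difference was 0.26 (limma unadjusted p = 0.0397, adjusted p = 0.450), and with the adipocyte mean it was 0.26 (unadjusted p = 0.110). The intervals are the range of differences that 11 arrays leave possible. HOXC5 ran from 6.28 through 6.96 to 7.32, while all restricted calves lay between 6.83 and 7.03 (difference -0.10, SE 0.17). HOXC4 differed by -0.065, and by -0.46 with the adipocyte mean in the fit (limma unadjusted p = 0.0142, adjusted p = 0.461). HOXC9 differed by -0.056 and HOXC13 by 0.029.

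HOXC11, which with its paralogues patterns limb and kidney in mice, had the largest difference in size of the 34 genes. It ran from 4.11 through 4.56 to 4.91 in elevated calves and was 4.78, 5.69, 4.82, 5.51 and 4.41 in restricted calves. Only restricted 2, restricted 3, restricted 4 and elevated 4 exceeded the reference level, and the gene's mean was below it. The log2 difference was -0.50 (SE 0.23, limma unadjusted p = 0.0556, adjusted p = 0.500). It was -0.13 without restricted 2 and restricted 4, -0.090 with the luminal mean in the fit and 0.0044 with the adipocyte mean in it. Other fits called it before adjustment, at -0.66 without restricted 5 (limma unadjusted p = 0.0132, adjusted p = 0.402) and -0.57 without restricted 1 or without elevated 4 (unadjusted p = 0.0496 and 0.0404). After quantile normalisation it was -0.52 (unadjusted p = 0.0441). HOXC12, also below the reference level, ran from 4.02 through 4.32 to 4.49 and was 4.32, 4.80, 4.17, 4.47 and 4.35 (difference -0.13, SE 0.12), with restricted 2 again the highest calf.

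HOXD genes had differences between -0.12 and 0.14, with 5 of 8 above 0 and a median of 0.0062. HOXD8 ran from 7.71 through 8.22 to 8.46 in elevated calves and was 8.01, 8.75, 8.21, 8.28 and 7.98 in restricted calves (difference -0.11, SE 0.17). HOXD3 ran from 5.38 through 5.70 to 6.10 and was 5.55, 6.22, 5.68, 6.01 and 5.70 (difference -0.12, SE 0.15). Restricted 2 was the highest of all calves for both genes, and without restricted 2 and restricted 4 the differences were 0.064 and 0.075. HOXD4 ran from 6.92 through 7.10 to 7.91 and was 7.08, 7.46, 7.30, 7.21 and 7.03, and the group means were equal at 7.22. Elevated 5 was the high calf. HOXD10, which in mice acts in the motor neurons of the hindlimb, ran from 5.04 through 5.29 to 5.75 and was 5.11, 5.16, 5.56, 5.03 and 5.23 (difference 0.14, SE 0.14). HOXD1, below the reference level, ran from 4.14 through 4.52 to 4.72 and was 4.32, 4.56, 4.14, 4.31 and 4.43 (difference 0.14, SE 0.12). HOXD9 differed by 0.012, HOXD11 by 0.042 and HOXD12 by -0.036.

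**Figure D3:**
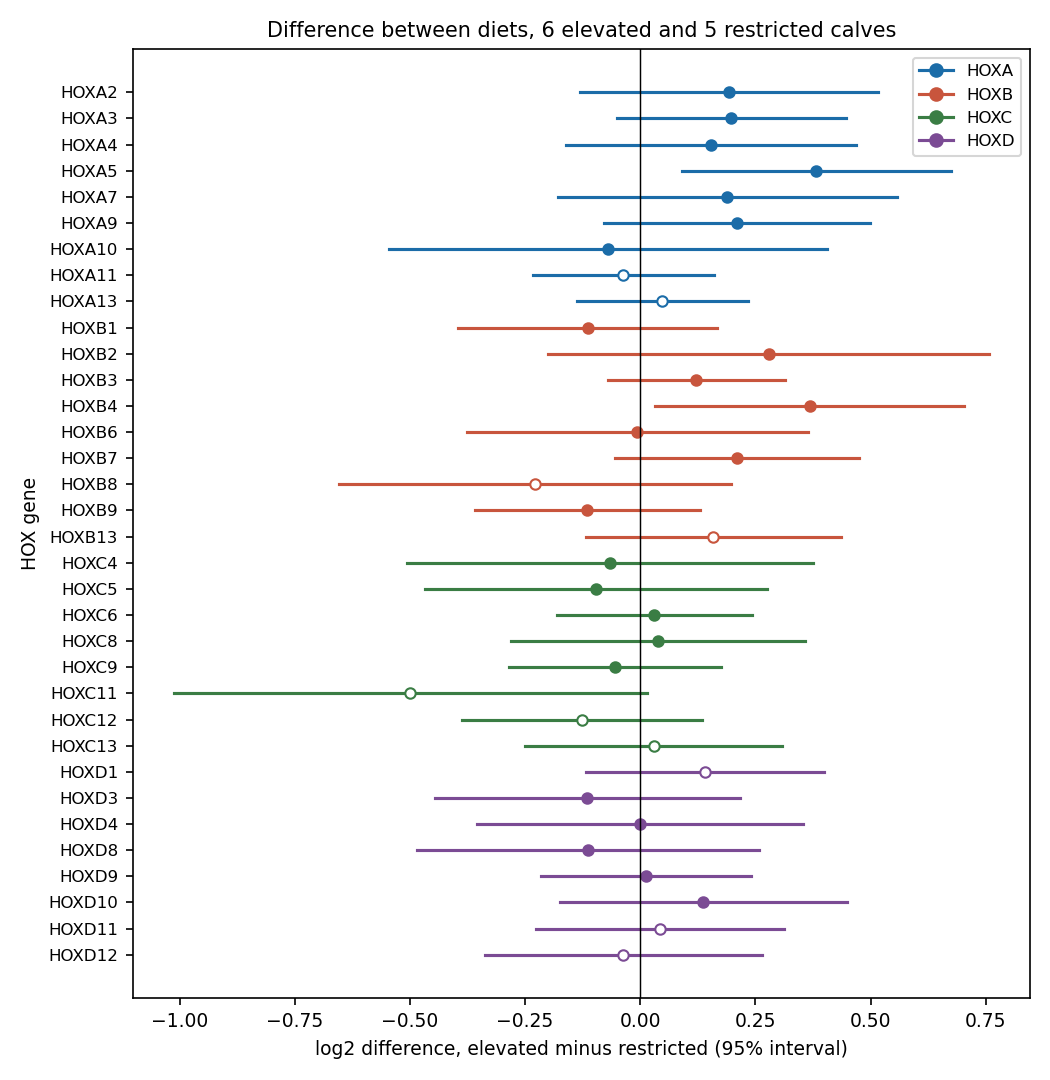
Log2 difference, elevated minus restricted, for each HOX gene (points) with its 95% interval from limma (lines), coloured by cluster; open points are genes whose mean is not above the reference level. The intervals of HOXA5 and HOXB4 leave out 0 before any adjustment, and those of the other genes hold it.

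The HOX genes varied between calves of the same diet about as much as other probe sets. The SD within groups ran from 0.12 for HOXA13 and 0.13 for HOXB3 to 0.39 for HOXB2 and 0.43 for HOXC11, with a median of 0.23, against 0.22 over all probe sets. HOXC6, the gene with the highest signal, had an SD of 0.15.

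Deviations from the diet means were then compared between genes over the 11 calves, as a description, for the 24 genes above the reference level. All points share the same 11 arrays, tissue pieces and normalisation. The median Pearson r was 0.15 over 62 pairs within a cluster and -0.047 over 214 pairs in different clusters. Over 19 pairs of genes next to each other among the measured genes of a cluster it was 0.33, with 16 of 19 above 0, and over 43 other pairs within a cluster it was -0.065. HOXD9 with HOXD10 (0.81), HOXB6 with HOXB7 (0.74), HOXD4 with HOXD8 (0.73), HOXD3 with HOXD4 (0.72) and HOXA7 with HOXA9 (0.70) were such neighbours. The RefSeq gene models of HOXD3 and HOXD4 overlap, as do those of the neighbours HOXA3 and HOXA4 (r = 0.28) and HOXB3 and HOXB4 (r = 0.36). Without restricted 2 and restricted 4 the median was 0.50 for neighbours and 0.0049 for the other pairs within a cluster. For paralogues of the same number the median r was -0.051 over 21 pairs.

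Some pairs from different clusters had the largest r in size, where there were also more pairs (214, against 62 within a cluster). The pairs named here were picked for their size. HOXA4, HOXC9 and HOXD3 formed a set with r of 0.89 for HOXA4 with HOXC9, 0.88 for HOXA4 with HOXD3 and 0.83 for HOXC9 with HOXD3. Other pairs ran in opposite directions. HOXA7 and HOXC8 had an r of -0.95, and HOXC4 had -0.87 with HOXD3 and -0.79 with HOXD8 and with HOXD4. Without restricted 2 and restricted 4 these values were 0.85, 0.84, 0.88, -0.97, -0.77, -0.68 and -0.82.

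**Figure D4:**
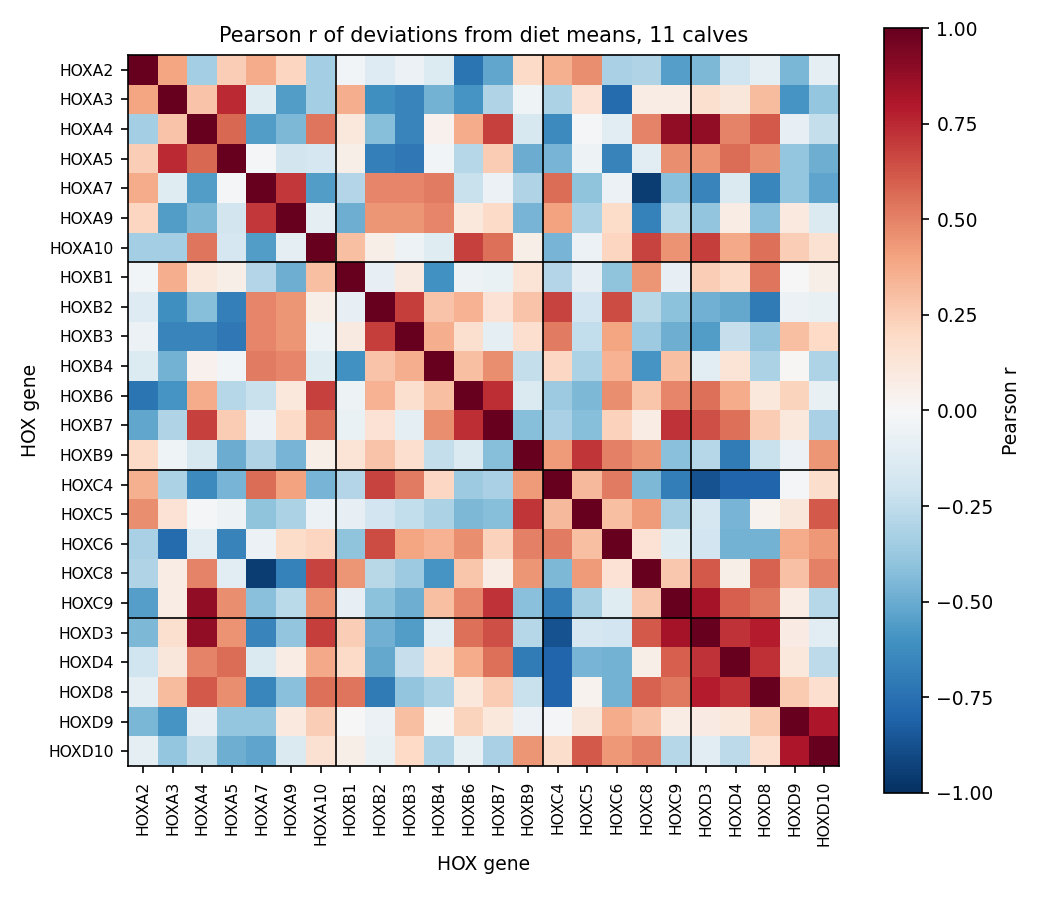
Pearson r of deviations from the diet means over 11 calves, for the 24 HOX genes above the reference level in cluster and paralogue order on both axes; red is positive, blue negative, and black lines part the clusters. Neighbours along the diagonal are mostly red (16 of 19 pairs above 0), and HOXA7 against HOXC8 is the darkest blue cell, at -0.95.

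HOX signals were set against the luminal and adipocyte marker means of each calf, a comparison chosen after the values were seen, with 68 relations in all. After Benjamini-Hochberg adjustment 10 relations had a permutation p of Pearson r under 0.05, held by 6 genes. By Spearman rho, only HOXA7 and HOXC11 with the luminal mean and HOXB2 and HOXC11 with the adipocyte mean did. The marker means largely ran opposite to each other: restricted 2 had the lowest luminal mean (6.41) and the highest adipocyte mean (10.61). For the 4 genes that held both relations by Pearson r, these are therefore not independent. HOXA7 was higher where luminal markers were higher (Pearson r = 0.80, permutation p = 0.0013, adjusted 0.0221; Spearman rho = 0.83, permutation p = 0.00259, adjusted 0.0440; n = 11). Without restricted 2 and restricted 4, the 2 calves farthest from the median, r was 0.82. HOXD8 ran the other way (r = -0.81, permutation p = 0.00178, adjusted 0.0242; rho = -0.76, permutation p = 0.00872, adjusted 0.0847), with r = -0.71 without the 2 calves.

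HOXD3 was also lower where the luminal mean was higher (r = -0.82, permutation p = 0.00051, adjusted 0.0116; rho = -0.81, permutation p = 0.00422, adjusted 0.0574), with r = -0.71 without the 2 calves. HOXC11 had r = -0.92 (permutation p = 2e-05, adjusted 0.00136) and rho = -0.97 (permutation p = 1e-05, the smallest that 100000 resamples can give; adjusted 0.00068), with r = -0.88 without the 2 calves. With the adipocyte mean, HOXC11 had r = 0.92 (permutation p = 0.00043, adjusted 0.0116; rho = 0.85, permutation p = 0.00181, adjusted 0.0410) and r = 0.71 without the 2 calves. HOXD8 had r = 0.82 with the adipocyte mean (permutation p = 0.00247, adjusted 0.0280; rho = 0.71, permutation p = 0.01868, adjusted 0.159; r = 0.78 without the 2 calves). HOXA7 had r = -0.76 with it (permutation p = 0.00722, adjusted 0.0491; rho = -0.66, permutation p = 0.0306, adjusted 0.159; r = -0.58 without the 2 calves).

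HOXB2 was lower where the adipocyte mean was higher (r = -0.79, permutation p = 0.00365, adjusted 0.0355; rho = -0.90, permutation p = 0.00049, adjusted 0.0167), with r = -0.89 without the 2 calves. HOXA9 had r = 0.70 with the luminal mean (permutation p = 0.00705, adjusted 0.0491) and r = -0.73 with the adipocyte mean (permutation p = 0.00613, adjusted 0.0491). Its relations rested on restricted 2 and restricted 4, since r was 0.34 and -0.45 without them, and rho was 0.47 and -0.54 (adjusted 0.412 and 0.303). For HOXA5, r was 0.18 with the luminal mean and -0.14 with the adipocyte mean (permutation p = 0.556 and 0.680, adjusted 0.772 and 0.811). The luminal and adipocyte means differed between the diets by 0.72 and -1.12, by 0.34 and -0.77 without restricted 2, and by 0.14 and -0.38 without restricted 2 and restricted 4. Their part in the diet differences was not tested beyond the covariate fits given above.

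**Figure D5:**
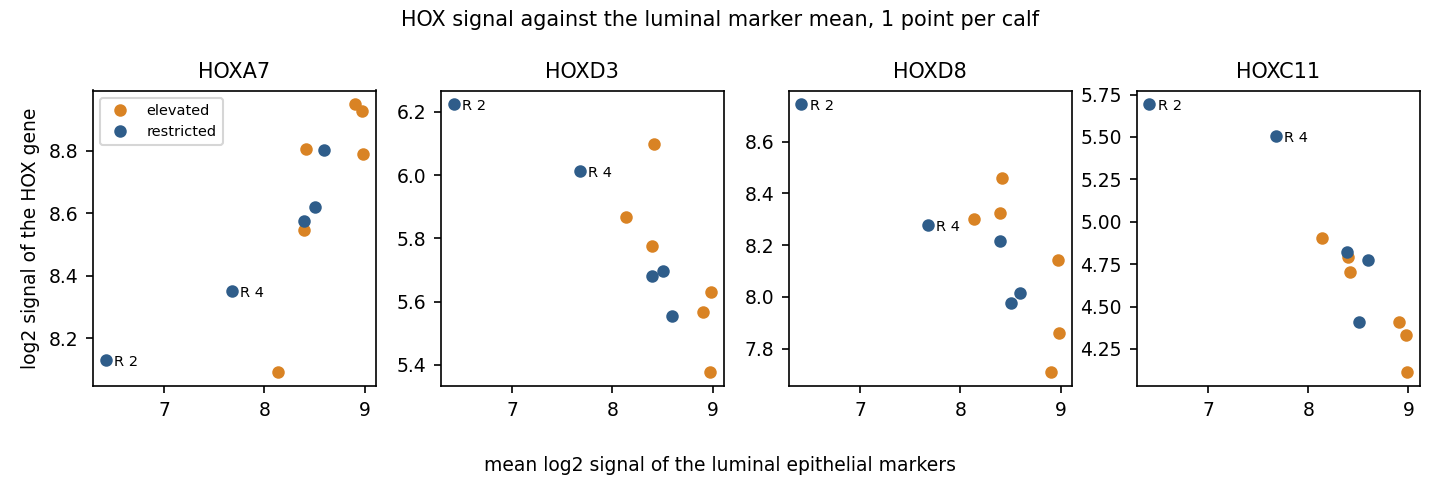
Log2 signal of HOXA7, HOXD3, HOXD8 and HOXC11 (vertical axes) against the mean log2 signal of 18 luminal epithelial markers (horizontal axes), 1 point per calf, coloured by diet; R 2 and R 4 are restricted 2 and restricted 4. HOXA7 is higher and the other 3 genes lower in calves with a high luminal mean (r = 0.80, -0.82, -0.81 and -0.92).

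The partners and regulators of HOX genes were read from the same fit, and 0 members of any list passed the adjustment over all probe sets. Of 8 measured PBX, MEIS and PKNOX cofactors, 3 were measured higher and 5 lower in elevated calves, with 2 (25.0%) under an unadjusted p of 0.05 in limma against 10.3% of all probe sets, and their median log2 difference was -0.16. PBX3, a partner that strengthens DNA binding by HOX proteins, averaged 8.91 ± 0.26 (SD) with the elevated diet and 9.24 ± 0.05 with the restricted one, differing by -0.33 on the log2 scale (SE 0.12, limma unadjusted p = 0.0156, adjusted p = 0.385). MEIS3 differed by -0.25 (SE 0.10) and PBX4 by -0.22 (SE 0.14). MEIS1 differed by 0.040 at a mean signal near 9.8.

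Among 29 Polycomb subunits 8 were measured higher and 21 lower, with a median of -0.061. Before adjustment 2 were called higher and 2 lower, a share of 13.8% against 10.3% of all probe sets. CBX8, which reads the repressive histone mark, ran from 7.23 through 7.42 to 7.59 in elevated calves and was 7.85, 7.72, 7.63, 7.62 and 8.05 in restricted calves. All restricted calves lay above all elevated calves, as was so in either direction for 1.28% of all probe sets (log2 difference -0.35, SE 0.10, limma adjusted p = 0.325). CBX2, a related reader, differed by -0.53 (SE 0.17) and PHF19, a Polycomb accessory protein, by 0.28 (SE 0.08), each with overlap between the groups. Of 14 genes of the Trithorax and demethylase list, 10 were measured higher, 0 were under an unadjusted p of 0.05 and the median was 0.030. NCOA6, KMT2D and KDM6A differed by 0.19, 0.13 and 0.12.

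Of 21 upstream regulators, 8 were measured higher and 13 lower, with 1 called higher and 4 lower before adjustment, a share of 23.8% against 10.3% of all probe sets. RDH10, which makes retinal for retinoic acid, an inducer of anterior HOX genes, differed by -0.59 (SE 0.10, limma adjusted p = 0.135) with no overlap between the groups, which held for 1.28% of all probe sets. GDF11, a signal that sets the position of the trunk to tail transition in mice, differed by -0.44 (SE 0.15). CRABP1, which binds retinoic acid in the cytoplasm, differed by 0.45 (SE 0.17). RDH10 had been named in earlier results of these data, so its value here is not independent.

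Of 29 measured genes beside and within the clusters, 10 were measured higher and 19 lower, with a median of -0.027, 1 called in each direction before adjustment (6.90%, against 10.3% of all probe sets). CALCOCO2, near HOXB, differed by 0.29 (SE 0.09), SNX10, near HOXA, by -0.80 (SE 0.36), and LNPK, near HOXD, by -0.18 (SE 0.09). MIR196B, whose locus lies beside HOXA9, had a mean signal of 7.37 and a difference of 0.34 (SE 0.17), chosen for mention after its value was seen. The probe sets for MIR10A and MIR10B, of the HOXB and HOXD clusters, differed by -0.021 and -0.12 at signals near 2.1 and 2.3, under the reference level. Mature miRNAs were not measured separately by these arrays. Of 36 other homeobox and T-box patterning genes, 20 were measured higher and 16 lower, with a median of 0.060. Before adjustment 4 were called higher and 2 lower, a share of 16.7% against 10.3% of all probe sets. DLX4 differed by -0.48 (SE 0.10, limma adjusted p = 0.188), DLX3 by -0.71 (SE 0.21) and SIX4 by 0.63 (SE 0.20), each with overlap between the groups.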

How the data were processed

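Arrays of mammary parenchyma from 6 elevated and 5 restricted calves were compared, with groups and calf numbers from the sample titles. The authors deposited log2 values per probe set made with RMA, per the submitters' processing notes; the sources used here name neither its version nor the array definition nor a genome build, so no coordinates are printed. The log2 scale was read from the values (1.08 to 14.2; array medians 6.37 to 6.45). RMA compresses differences of dim probe sets. The number of arrays limits the precision. No 2 arrays were identical (r between arrays 0.964 to 0.990).

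Of 26773 probe sets, 18790 had 1 gene symbol, 385 several and 7598 none in the platform table; 33 of 34 HOX genes matched RefSeq by gene number and 34 by symbol. Differences are from limma 3.58.1 in R 4.3.3 (lmFit, eBayes, no filter, Benjamini-Hochberg over all probe sets, threshold 0.05). The fit was checked on simulated data, where it recovered 55.2% of 67 probe sets changed 1.5-fold and 83.6% of 67 changed 2-fold. Another 66 were changed 4-fold, and noise was drawn independently for each value. Real probe sets share variation between calves, and the added changes ease the Benjamini-Hochberg adjustment. The recovered shares are therefore not the chance that a HOX difference of that size is called here. The members and lists were chosen with earlier results of these data known. Values per calf are given for the 3 genes with the smallest p and the 2 with the highest mean in each cluster, and up to 3 genes with the smallest p of each other list are named. The remaining HOX genes are given by signal and difference; HOXA4, HOXC4 and HOXC9, MEIS1, MIR10A, MIR10B and MIR196B were picked for further values after these were seen. Alternatives were other scalings, a filter, variance models, array weights, the replicate number as a block, marker covariates, the mean over probe sets and leaving out calves. The labels describe separate calves, so the spread is between animals. Permutation tests of correlations used 100000 resamples, two-sided. Figures were drawn with matplotlib 3.10.9.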

Additional observations from a re-analysis of the deposited data

Results flagged for a closer look

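Within each diet group, a calf was singled out when its gap to the nearest other calf was a large share of the group's range (Dixon's 95% criterion). Over 68 groups, 5 met it, where chance gives about 3.4. HOXD4 in elevated 5 was 7.91, with the other 5 elevated calves between 6.92 and 7.18. HOXA3 in restricted 3 was 5.50, with the others between 5.88 and 6.04. HOXB9 in elevated 5 was 4.83, with the others between 5.29 and 5.40. Among genes whose mean was not above the reference level, HOXA13 in elevated 5 was 4.49 (others 4.75 to 4.91) and HOXD12 in elevated 4 was 4.38 (others 3.83 to 3.99). Elevated 5, the calf with 3 of these values, also had the highest skeletal muscle marker mean, 6.89, against 5.09 to 6.30 in the other calves. By their means over all calves, 12 of 13 muscle markers were above the reference level. The part of the muscle markers in these values was not tested.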

How the results depend on the processing

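In all 22 alternative fits 0 HOX genes passed the adjusted threshold (smallest adjusted p = 0.262). In the full comparison, 2 of 34 HOX genes were under an unadjusted limma p of 0.05, against 10.3% of all probe sets. The alternatives were added after seeing the data. That HOX count was 5 with the adipocyte covariate, 4 with the luminal covariate and 1 with array weights. It was 1 to 5 over left-out calves: 1 without elevated 2, elevated 3, elevated 5 or restricted 2, and 5 without elevated 4. The shares of all probe sets in these fits are not given here, so the counts are not read as a HOX result. The median HOX difference ran from -0.0069 to 0.068 over left-out calves and turned sign without restricted 1. Past the adjusted threshold, 2 of all probe sets were counted in the full comparison. That number was 0 with the adipocyte covariate, 4 with array weights and 4 with the luminal covariate. It was 25 without restricted 2 and restricted 4, and 15 without these and elevated 5. Over left-out calves it ran from 0 to 12: 12 with elevated 4 left out, 8 with restricted 2 and 1 with elevated 6. It was 0 with any of elevated 1, restricted 1, elevated 3 and restricted 5 left out. For calves with the same number, 1 to 5, r between their deviations was 0.21, 0.053, 0.10, 0.084 and -0.15. Calves with different numbers were not compared, so these values do not settle whether the numbers pair calves. With the replicate number as a block, 0 probe sets passed the adjusted threshold. At an unadjusted limma p under 0.05 that fit called 4 HOX genes, adding HOXB7 (0.28) and HOXC11 (-0.46) to HOXA5 and HOXB4. Only the elevated group has a calf numbered 6, so the differences in the block fit equal those without elevated 6, while the p-values differ. The share of all probe sets that the block fit called is not given here, so its count is not read as a HOX result either. With the 90th percentile as reference 28 HOX genes lay above it in place of 24.

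Of the 34 HOX genes, 21 changed sign in at least 1 fit. For the 18 genes given per calf, the differences that changed sign, none of them called, were as follows; the others include HOXA10 (0.18 with the adipocyte covariate, 0.25 with the luminal), HOXB1, HOXB6 and HOXC9. With the adipocyte covariate they became -0.10 for HOXA7, -0.12 for HOXB2, -0.075 for HOXC6, 0.0044 for HOXC11, 0.0079 for HOXC12, 0.15 for HOXD3 and 0.24 for HOXD8. With the luminal covariate they became -0.061 for HOXA7, -0.011 for HOXC6, 0.011 for HOXC12, 0.12 for HOXD3 and 0.16 for HOXD8. HOXD4 became -0.028 with array weights, -0.0053 with median centring, -0.010 with quantile normalisation. Without restricted 2 and restricted 4, HOXC6 became -0.020, HOXC12 0.014, HOXD3 0.075 and HOXD8 0.064. Without these and elevated 5, HOXA7 became -0.0053, HOXC5 0.035, HOXC12 0.069 and HOXD4 -0.057. Over left-out calves the ranges were -0.0078 to 0.073 for HOXC6, -0.046 to 0.15 for HOXC8, -0.19 to 0.016 for HOXC5, -0.14 to 0.062 for HOXD4 and -0.18 to 0.011 for HOXD8. The causes were not tested.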

Other observations

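Some deposited values were exactly equal in several calves. HOXB9 had the value 5.35 in 5 of 11 calves, and HOXB13 had 4.73 in 4 of 11. HOXA13, HOXB8 and HOXD12 each had a value shared by 3 calves, and HOXA10 and HOXD1 by a pair. In all, 7 of 34 HOX genes (20.6%) and 32.4% of all probe sets held equal values. All 7 had mean signals at or below 5.68. Ranges and SDs of these genes rest on fewer distinct values than calves.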
